A study of Mus musculus with 16 samples.

Results

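The striatal transcriptome of R6/1 mice that performed well was compared here with that of wild-type mice that performed well, using 4 animals of each genotype and 8 of the 16 libraries of the study. R6/1 is a transgenic model of Huntington’s disease that carries exon 1 of human huntingtin with an expanded CAG repeat under the human huntingtin promoter, so that the transgene is present in every cell and adds to both mouse alleles. All animals were C57Bl/6 males of 14 weeks (of the J substrain in the study’s methods), housed singly before a battery of behavioural tests, and each striatal RNA was sequenced as its own library. Mice were classed as “good” when their Z-scores for rotarod, feet clasping and body weight were the highest of their genotype, and the remaining 8 libraries came from the R6/1 poor and wild-type poor mice, which had the lowest scores. The libraries were chosen by label alone, the 4 R6/1 good against the 4 wild-type good columns of the count table, and a gene was kept when at least 10 reads were counted in at least 4 of the 16 libraries. This left 19363 of 55450 genes. Wild-type mice were littermates of the R6/1 mice. Class of performance was the same on both sides, so genotype was the only labelled difference.

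The striatum is made mostly of GABAergic medium spiny neurons (MSNs), which receive glutamate from cortex and thalamus and dopamine from the midbrain. MSNs of the direct pathway carry the D1 dopamine receptor, dynorphin and substance P. Those of the indirect pathway carry the D2 receptor, an adenosine receptor (Adora2a) and enkephalin, and both kinds read dopamine through cyclic AMP and the phosphatase inhibitor DARPP-32. MSNs are the neurons most affected in Huntington’s disease, in which mutant huntingtin is known to disturb transcription before neurons are lost. The remaining striatal neurons are interneurons that release acetylcholine or GABA, and dissected tissue also holds astrocytes, oligodendrocytes, microglia and vessels. In bulk tissue, fewer cells of a type and less RNA per cell cannot be told apart.

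Total counts per library ran from 16155356 to 20028431 in the R6/1 good mice and from 19107671 to 23148483 in the wild-type good mice. The first principal component of the 8 libraries held 34.5% of the variance and separated the genotypes, with scores of 14.5 to 38.3 in R6/1 and of −47.3 to −11.6 in wild type. Mouse huntingtin (Htt) was measured at 187, 179, 169 and 207 CPM (read counts scaled to a common library size) in R6/1 good mice 1 to 4 and at 174, 147, 148 and 177 CPM in wild-type good mice 1 to 4, the order kept throughout. The Htt ranges overlapped, and the difference did not pass the test (log2 fold change 0.20 ± 0.09, adjusted p = 0.178). The transgene is human sequence and was not analysed here, so the genotype labels were not checked by a targeted gene. Markers that define the tissue, among them Drd1, Drd2, Ppp1r1b and Adora2a, were present in all 8 libraries, the lowest value being 71.1 CPM for Adora2a. The columns carry running numbers, 2, 3, 7 and 8 for the R6/1 good libraries and 1, 12, 13 and 4 for the wild-type good libraries, and what the numbers record is not given in the sources used here. Wild-type good mice 1 and 2 are labelled 8 and 8b, and the study’s methods describe 4 mice per group, each processed separately. Over the tested genes their Spearman correlation was 0.987, and those of the other pairs of wild-type good libraries were 0.982 to 0.988. Being alike for all pairs, such a correlation cannot show whether 8 and 8b are 1 animal. On the first principal component wild-type good mice 1 to 4 scored −42.3, −47.3, −17.6 and −11.6. With only libraries 1 to 8 (4 R6/1 good and 2 wild-type good), 1607 of the 2698 genes called below were called again. All 2698 kept their direction, but this fit reuses part of the same 8 libraries. For the 2539 called genes without overlap between the groups, the direction could hardly change, so it is no separate check of the running numbers.

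With edgeR’s quasi-likelihood test, 2698 genes differed between R6/1 good and wild-type good mice at an adjusted p under 0.05 over the 19363 genes tested, or 13.9%. Of these genes, 1121 (5.79%) were higher and 1577 (8.14%) were lower in R6/1. Counts of called members of the gene lists below are to be read beside these 2 shares. Decreases were the larger changes, with a median log2 fold change of −0.64 among the lower genes and of 0.43 among the higher genes. On the log2 scale, 414 genes were lower by 1 or more and 105 higher by as much, and 83 were lower by 2 or more against 8 higher. The test called 1537 genes without R6/1 good mouse 1, 1381 without R6/1 good mouse 2 and 1795 without wild-type good mouse 1, and the higher genes numbered 702 without R6/1 good mouse 4. The 4 R6/1 values did not overlap the 4 wild-type values for 2539 of the called genes, while over all genes tested this held for 4199, or 21.7%. At an unadjusted p under 0.05 there were 5735 genes. The median log2 fold change of all genes was 0.02. In the plot of fold change against mean level, lower genes lie further from 0 than higher genes.

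**Figure D1:**
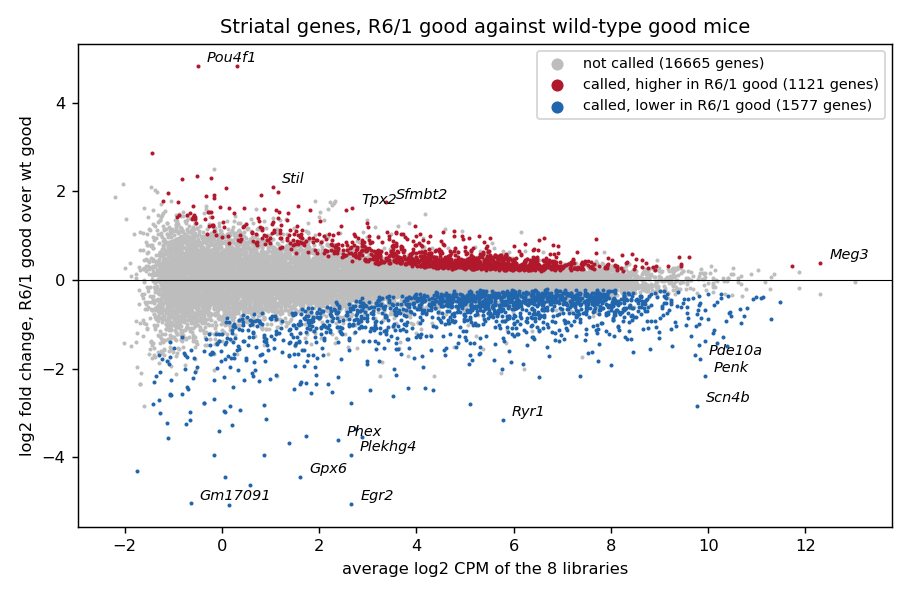
Each point is 1 of the 19363 genes tested, with its average level (log2 CPM) on the horizontal axis and the log2 fold change of R6/1 good over wild-type good (4 mice each) on the vertical axis. Colours mark the 1121 genes called higher and the 1577 called lower, and a reader should see that the 83 genes lower by 2 or more face 8 that were higher by as much.

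Among called genes with an average of at least 1 log2 CPM and no overlap between the groups, the largest decrease by fold was that of Egr2, an immediate early transcription factor gene that neurons switch on with synaptic activity (chr10:67535475-67542188, plus strand, GRCm38). It measured 0.196, 0.294, 0.234 and 0.699 CPM in the R6/1 good mice and 6.99, 33.9, 3.19 and 3.98 CPM in the wild-type good mice. Every R6/1 value lay below the lowest wild-type value, and wild-type mouse 2 stood far above the other wild-type mice. The log2 fold change was −5.05 ± 1.04 (approximate SE, n = 4 against 4, adjusted p = 0.0194). The adjusted p of Egr2 was 0.0546, 0.0652 and 0.0657 without R6/1 good mouse 1, 2 and 3, and 0.00251 without wild-type good mouse 2, with a log2 fold change of −3.69. Its promoter is shown because Egr2 led the activity-regulated genes described further down. The window holds a CArG box, the element that serum response factor binds, which is printed in capitals and lies at bases −72 to −63 from the start. Over all promoter windows of this length, 1.63% hold a CArG box. This window was chosen because it holds the box, so the share over all windows does not measure how unusual the box is here. The sequence is from RefSeq (GRCm38.p6, chr10:67537316-67537615, plus strand, 250 bases before to 50 after the start). Its start is 1 of 5 listed for the gene, 2091 bases inside the gene model given above.
Egr2 promoter: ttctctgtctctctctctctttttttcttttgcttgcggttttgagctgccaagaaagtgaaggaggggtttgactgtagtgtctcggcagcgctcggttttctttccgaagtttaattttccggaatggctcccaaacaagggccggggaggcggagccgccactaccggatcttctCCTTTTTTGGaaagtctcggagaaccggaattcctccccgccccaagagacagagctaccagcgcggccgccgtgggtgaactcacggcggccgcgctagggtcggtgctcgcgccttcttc

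Egr2 headed the 15 largest decreases chosen by this rule, and the others encode several classes of protein. Gpx6, a glutathione peroxidase gene, measured 0.098, 0.392, 0.117 and 0.4 CPM in R6/1 and 7.36, 6.18, 3.37 and 5.75 CPM in wild type, a log2 fold change of −4.44 ± 0.41 (adjusted p = 0.000331). Plekhg4, a gene for a guanine nucleotide exchange factor of small GTPases, changed by −3.94 ± 0.38, with 0.467 to 1.05 CPM in R6/1 and 7.1 to 20 CPM in wild type. Fst, which encodes the activin inhibitor follistatin, changed by −3.51 ± 0.33. All 4 R6/1 mice were at least several-fold below every wild-type mouse for these genes. The same list held Phex (an endopeptidase, −3.61 ± 0.40), Upb1 (a pyrimidine breakdown enzyme, −2.55 ± 0.28), Fgf3 (a fibroblast growth factor, −2.51 ± 0.37), Ankk1 (a kinase gene beside Drd2, −2.77 ± 0.43), Ptprv (a receptor-type phosphatase, −2.79 ± 0.42) and the orphan receptor gene Gpr139 (−2.62 ± 0.49). Abhd11os, an antisense RNA, changed by −3.37 ± 0.36. The sources used here do not state that counting used strand, and its reads and those of Abhd11 cannot be told apart. Gm39043 (−3.54 ± 0.41) and AC128672.1 (−3.67 ± 0.65) are gene models without an established function. Upb1 overlaps another measured gene on the opposite strand, so that reads may not be separate.

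Channel genes of MSNs completed the list. Scn4b encodes a beta subunit of voltage-gated sodium channels that is abundant in MSNs (chr9:45138395-45154152, plus strand). It measured 146, 225, 173 and 314 CPM in R6/1 and 2118, 1844, 1104 and 1085 CPM in wild type. The groups were well apart, and the log2 fold change was −2.84 ± 0.32 (adjusted p = 0.00184). Ryr1, a calcium release channel gene of the endoplasmic reticulum, measured 11.5, 9.52, 10.2 and 13.3 CPM in R6/1 and 145, 117, 65.1 and 69.3 CPM in wild type (−3.15 ± 0.29, adjusted p = 0.000812). In both genes, wild-type mice 1 and 2 were higher than wild-type mice 3 and 4.

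The largest increases were smaller than the largest decreases. The first among the 15 chosen by the same rule was that of Stil, a gene needed for centriole duplication (chr4:115000159-115043196, plus strand), at 2.89, 3.58, 3.56 and 2.9 CPM in R6/1 and 0.157, 0.553, 0.682 and 1.61 CPM in wild type. The ranges did not overlap, although wild-type mice spread widely, and the log2 fold change was 2.11 ± 0.46 (adjusted p = 0.0149). Sfmbt2, a Polycomb-related chromatin gene, measured 16.9, 14.8, 16 and 16.6 CPM against 3.86, 4.61, 5.14 and 5.43 CPM (1.75 ± 0.13, adjusted p = 0.000104), and both groups were tight. Tpx2, a spindle assembly gene, measured 9.16, 10.6, 9.17 and 9.49 CPM against 1.72, 3.41, 3 and 4.3 CPM (1.63 ± 0.23, adjusted p = 0.00191). Others of the list included Smim24 (a small membrane protein, 1.99 ± 0.26), Tnnt2 (cardiac troponin T, 1.57 ± 0.22), Pld6 (a mitochondrial phospholipase, 1.58 ± 0.23), Rbm11 (a splicing factor, 1.29 ± 0.18), Tmc3 (1.53 ± 0.35), Ccdc87 (1.66 ± 0.30), Lrriq1 (1.40 ± 0.31), Gm6013 (1.59 ± 0.32) and Gm20628 (1.32 ± 0.25). Ifitm7 (1.52 ± 0.36) and Phf2os1 (1.32 ± 0.16) lie on the opposite strand of 2900011O08Rik and Phf2, so their counts are uncertain in the same way as those of Abhd11os, and Ifitm7 was not called without wild-type good mouse 2. Tmc3 and Gm20628 overlap other measured genes on the opposite strand too. The promoter of Stil is shown because the gene led the increases and because CCAAT, the box bound by the NF-Y complex whose subunit genes Nfya and Nfyc were higher, stands in it at bases −241 to −237, −15 to −11 and, on the opposite strand as ATTGG, at −99 to −95. CCAAT or its reverse complement occurs in 42.3% of the 13085 promoters matched to tested genes, in 43.5% of those of higher genes and in 43.5% of those of lower genes. The sequence is from RefSeq (GRCm38.p6, chr4:114999868-115000167, plus strand), with the boxes in capitals.
Stil promoter: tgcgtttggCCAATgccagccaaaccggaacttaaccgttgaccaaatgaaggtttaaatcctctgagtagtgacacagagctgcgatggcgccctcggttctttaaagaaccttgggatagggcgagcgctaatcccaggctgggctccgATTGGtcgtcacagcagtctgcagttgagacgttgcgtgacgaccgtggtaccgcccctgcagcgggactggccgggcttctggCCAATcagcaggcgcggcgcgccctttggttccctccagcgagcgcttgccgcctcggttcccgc

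A pair of genes behaved like switches, with 0.1 CPM or less in every mouse of one group and 0.5 CPM or more in every mouse of the other. Pou4f1, a POU homeobox gene of sensory and habenular neurons, was counted 16, 29, 23 and 26 times in the R6/1 good mice and 0, 1, 2 and 0 times in the wild-type good mice. Scaled to library size the ratio was 35.2, with an exact 95% interval of 11.7 to 174 that covers counting error only (adjusted p = 0.000937). Gm17091, an unprocessed pseudogene on chromosome 5, was counted 0, 0, 1 and 1 times in R6/1 and 22, 28, 19 and 16 times in wild type. The wild-type to R6/1 ratio was 37.8 (10.1 to 317, adjusted p = 0.000819), and reads of a pseudogene may belong to its parent gene. Pou4f1 was higher in R6/1 and Gm17091 lower.

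At the other end of the scale, the called genes of highest mean level show how the most abundant transcripts moved. The noncoding RNA Meg3 measured 5188, 5856, 5705 and 6329 CPM in R6/1 and 4577, 4078, 4164 and 4774 CPM in wild type (log2 fold change 0.39 ± 0.09, adjusted p = 0.0174), and the translation factor gene Eef1a1 was likewise higher (0.32 ± 0.08). Of these 10 genes the other 8 were lower. They included the myelin gene Mobp (−0.81 ± 0.22), the astrocytic glutamate transporter gene Slc1a2 (−0.89 ± 0.10), the prohormone processing gene Cpe (−0.39 ± 0.07), the fatty acid desaturase gene Scd2 (−0.41 ± 0.12), ferritin Fth1 (−0.42 ± 0.10) and the kinase Camk2a (−0.63 ± 0.17). Groups overlapped for Mobp and for no other gene of those named from the 10. Meg3 was no longer called without R6/1 good mouse 2 (adjusted p = 0.0603). Just inside the threshold stood Rfx4 (adjusted p = 0.0498, −0.35), Dbndd1 (0.0498, 0.35) and Pcna (0.0499, 0.26), and just outside it 4931428F04Rik (0.0501, 0.43), Gramd2 (0.0501, −0.52) and Epm2aip1 (0.0501, 0.35). Calls that leaving out a single mouse ended were those of Eef1a1 (2 of the 8 fits that each left out 1 mouse), Mobp (6), Scd2 (7), Fth1 (2) and Camk2a (6).

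Genes that define MSN signalling were lower as a group. Of 25 core genes, 23 were lower and 0 higher, with a median log2 fold change of −1.17, beside 8.14% lower and a median of 0.02 over all genes. Their summed level ran from 6482 to 10102 CPM in the R6/1 good mice and from 14755 to 23697 CPM in the wild-type good mice, without overlap. Ppp1r1b, which encodes DARPP-32, measured 368, 518, 381 and 637 CPM in R6/1 and 1655, 1584, 1025 and 1017 CPM in wild type. All R6/1 mice were below all wild-type mice, and the log2 fold change was −1.47 ± 0.23 (adjusted p = 0.00486). Adcy5, the main adenylyl cyclase of MSNs, measured 453, 576, 466 and 692 CPM against 1742, 1568, 1135 and 1185 CPM (−1.36 ± 0.18, adjusted p = 0.00174). Arpp21 and Arpp19, both substrates of protein kinase A, changed by −1.41 ± 0.16 and −1.55 ± 0.21. Itpka, an inositol trisphosphate kinase gene of dendritic spines, changed by −1.15 ± 0.12 and the phosphatase gene Ptpn5 by −1.04 ± 0.21. Gnal, the gene of the stimulatory G protein alpha subunit of MSNs, overlapped between the groups and did not pass (−0.40 ± 0.14, adjusted p = 0.0892). Leaving out 1 mouse at a time left 17 to 24 members lower, and libraries 1 to 8 alone gave a median of −1.26.

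Genes of both MSN pathways were lower in part. Among 9 indirect pathway genes measured, 5 were lower and 0 higher, with a median of −1.45. Penk, which encodes the enkephalin precursor, measured 327, 370, 306 and 422 CPM in R6/1 and 1830, 1925, 1402 and 1233 CPM in wild type. Its lowest wild-type value was far above its highest R6/1 value, and the log2 fold change was −2.17 ± 0.16 (adjusted p = 0.000193). Adora2a, the adenosine receptor gene, measured 71.1, 101, 81.1 and 125 CPM against 460, 372, 260 and 254 CPM (−1.83 ± 0.24, adjusted p = 0.00265). Drd2 measured 86.5, 128, 93.9 and 157 CPM against 416, 403, 214 and 234 CPM (−1.45 ± 0.28, adjusted p = 0.014). For both receptors, wild-type mice 1 and 2 were higher than mice 3 and 4, and no value overlapped. The delta opioid receptor gene Oprd1 (−1.57 ± 0.21) and the orphan receptor gene Gpr6 (−1.45 ± 0.20) were also lower. Sp9, a transcription factor gene (−0.33 ± 0.25), Ptprm (0.03 ± 0.08), Gucy1a1, a subunit of guanylyl cyclase (−0.15 ± 0.10), and the kainate receptor gene Grik3 (−0.17 ± 0.11) did not pass and overlapped between the groups. Sp9 overlaps another measured gene on the opposite strand, so that reads may not be separate.

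Of the 10 direct pathway genes, 5 were lower and 0 higher, with a median of −0.37. Drd1 measured 119, 138, 99.3 and 162 CPM in R6/1 and 307, 368, 225 and 238 CPM in wild type (−1.14 ± 0.19, adjusted p = 0.00575), and no values overlapped. Pdyn, the dynorphin precursor gene, measured 97.6, 89.7, 69.9 and 94.8 CPM against 129, 183, 164 and 129 CPM (−0.78 ± 0.14, adjusted p = 0.00668), and the muscarinic receptor gene Chrm4 changed by −1.29 ± 0.16 (adjusted p = 0.00114). Tac1, the substance P precursor gene, overlapped between the genotypes at 188, 229, 156 and 229 CPM in R6/1 and 223, 322, 242 and 188 CPM in wild type (−0.28 ± 0.17, adjusted p = 0.309). The nucleotide sugar transporter family gene Slc35d3 (−0.66 ± 0.16) and the mitochondrial serine transporter gene Sfxn1 (−0.45 ± 0.13) were lower. Isl1 (0.22 ± 0.12), Ebf1 (0.20 ± 0.20) and Eya1 (0.42 ± 0.19), which encode regulators of development, did not pass. Without any 1 of R6/1 good mice 1, 2 and 3 or wild-type good mice 1 and 2, 3 of the 10 were lower. The median was −0.21 without wild-type good mouse 2, −0.16 in libraries 1 to 8 alone and −0.15 with the range of running numbers (1 to 8 or 9 to 16) as a covariate. The plot of MSN and interneuron genes shows each of the 8 mice for the receptors, peptides and enzymes named here. Leaving out a single mouse ended the calls of Slc35d3 (5 of 8 fits) and Sfxn1 (7).

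**Figure D2:**
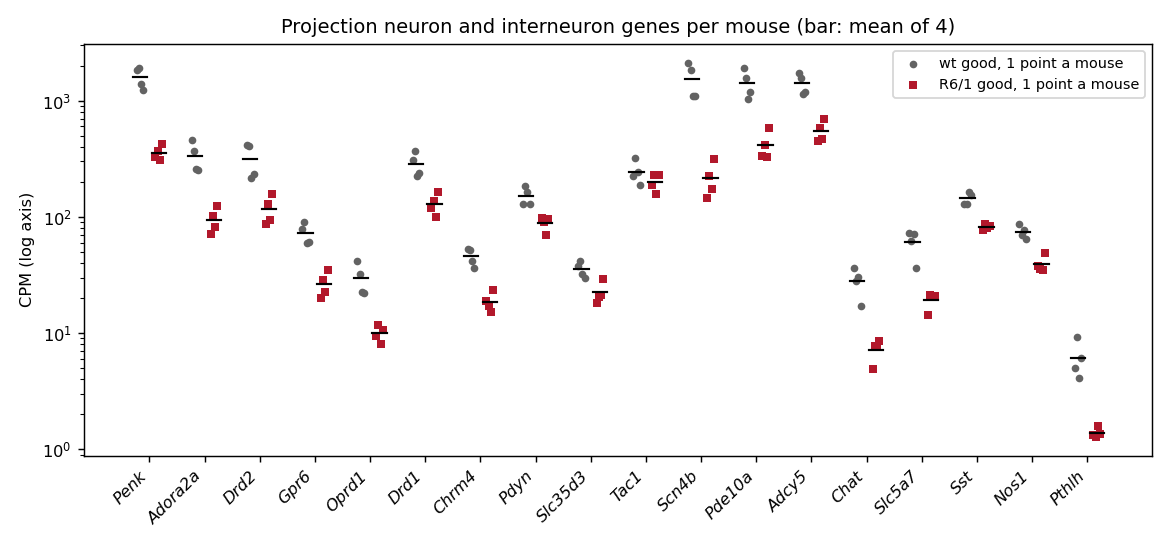
Each column of points is 1 gene, with the CPM of each of the 4 wild-type good mice (grey circles) and 4 R6/1 good mice (red squares) on a log axis and a bar at the mean of each group. A reader should see groups without overlap for Penk (306 to 422 against 1233 to 1925 CPM) and overlapping groups for Tac1 (156 to 229 against 188 to 322 CPM).

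Transcription factors that keep MSN identity were lower in smaller number than the core signalling genes. Of 18 measured, 6 were lower and 0 higher, with a median of −0.34. Foxo1 changed by −0.68 ± 0.12 (adjusted p = 0.00558), Bcl11b, which encodes Ctip2, by −0.71 ± 0.14 (adjusted p = 0.0113), Foxp1 by −0.67 ± 0.17 and Meis2 by −0.45 ± 0.12. Without any 1 of R6/1 good mice 1, 2 and 3 or wild-type good mice 1 and 2, 3 were lower, and the median was −0.20 without R6/1 good mouse 1. With the range of running numbers as a covariate 2 were higher and 2 lower, and in libraries 1 to 8 alone 2 were higher and 5 lower. Bcl11b measured 135, 172, 129 and 170 CPM in R6/1 and 289, 286, 208 and 209 CPM in wild type, without overlap. Peptide and lipid receptors followed the MSN genes: 8 of 18 opioid, cannabinoid and tachykinin genes were lower and 1 higher (median −0.60), among them the substance P receptor gene Tacr1 at 14.8, 17.9, 17.9 and 22.3 CPM against 57.9, 56, 40.7 and 31 CPM (−1.35 ± 0.21, adjusted p = 0.00387) and the kappa opioid receptor gene Oprk1 (−0.92 ± 0.15). Of 17 phosphodiesterase genes, 5 were lower and 1 higher. Pde10a, the enzyme that clears both cyclic nucleotides in MSNs, measured 331, 419, 325 and 580 CPM against 1892, 1573, 1024 and 1179 CPM (−1.78 ± 0.25, adjusted p = 0.00305), and Pde1b changed by −1.13 ± 0.20, Pde7b by −0.70 ± 0.15 and Pde1c by −0.59 ± 0.08. Pde4d was the one that was higher (0.45 ± 0.08, adjusted p = 0.00606). Fits without 1 mouse no longer called Foxp1 (5 of 8 fits) and Meis2 (5).

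Of 23 adenylyl cyclase and G protein subunit genes, 6 were lower and 1 higher, beside 8.14% and 5.79% over all genes, and 16 did not pass. Their median was −0.08 with all 8 mice, −0.18 to −0.11 when 1 mouse was left out and −0.20 in libraries 1 to 8 alone. The lower genes included the beta subunits Gnb5 (−0.71 ± 0.15) and Gnb2 (−0.44 ± 0.08), the gamma subunit Gng7 (−0.92 ± 0.23) and the calmodulin-stimulated cyclase Adcy1 (−0.43 ± 0.10), while Gng3 was higher (0.76 ± 0.18), a gene that overlaps Bscl2 on the opposite strand. The lower genes were 3 without R6/1 good mouse 1, 2 or 3 or wild-type good mouse 1. Of 16 genes for regulators of G protein signalling, which speed the hydrolysis of GTP on alpha subunits, 6 were lower and 1 higher (median −0.45). Rgs14 measured 36.3, 29.7, 23.8 and 28.4 CPM in R6/1 and 78.3, 99.3, 77.8 and 105 CPM in wild type (−1.61 ± 0.14, adjusted p = 0.000331). Rgs9, the striatal member that acts on D2 receptor signalling, measured 130, 186, 135 and 240 CPM against 679, 580, 417 and 449 CPM (−1.62 ± 0.23, adjusted p = 0.0033). Rgs11 (−1.43 ± 0.16) and Rgs20 (−0.92 ± 0.15) were lower and Rgs19 was higher (0.79 ± 0.12, adjusted p = 0.00264). No value of Rgs14, Rgs9 or Rgs19 overlapped between the groups. Rgs11 and Rgs20 each overlap another measured gene on the opposite strand, so that reads may not be separate. No longer called when single mice were left out were Gng7 (5 of 8 fits), Adcy1 (4) and Gng3 (4).

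Cholinergic interneuron genes were lower too. Of 9 measured, 6 were lower and 0 higher, with a median of −1.51, and the summed level ran from 66.8 to 101 CPM in R6/1 and from 140 to 267 CPM in wild type. Chat, the acetylcholine synthesis gene, measured 4.9, 7.7, 7.71 and 8.49 CPM in R6/1 and 36.2, 27.8, 30.2 and 17.2 CPM in wild type (−1.95 ± 0.24, adjusted p = 0.00147). Slc5a7, the choline transporter gene, measured 14.2, 21.1, 20.6 and 21 CPM against 72.5, 61.3, 71.2 and 35.9 CPM (−1.65 ± 0.23, adjusted p = 0.00281). In both, wild-type mouse 4 was the lowest of its group yet above every R6/1 mouse. The vesicular glutamate transporter gene Slc17a8 (−1.53 ± 0.23), the endopeptidase gene Ecel1 (−1.51 ± 0.25) and the vesicular acetylcholine transporter gene Slc18a3 (−1.58 ± 0.33) were lower, the last lying within the Chat locus on the same strand, so that their reads may not be separate. Lhx8 (−0.65 ± 0.34) and Gbx2 (−0.43 ± 0.51), which specify these neurons in development, and Isl1 did not pass. Lhx8 and Gbx1 (−1.16 ± 0.64) are also high in the neighbouring globus pallidus and basal forebrain. The 7 markers of that tissue summed to 130 to 241 CPM in R6/1 and 194 to 350.5 CPM in wild type, with 2 lower. Slc5a7, among those 2, and Lhx8 belong to both lists, so the lists are not independent. The part of such tissue in the cholinergic values was not tested.

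Of 13 GABAergic interneuron genes, 8 were lower and 0 higher, with a median of −0.71. Sst, the somatostatin gene (chr16:23889573-23890958, minus strand), measured 77.6, 86.6, 79.8 and 82.8 CPM in R6/1 and 129, 129, 164 and 154 CPM in wild type, with the R6/1 mice within a narrow range and none near the wild-type mice. Its log2 fold change was −0.82 ± 0.09 (adjusted p = 0.000722). Genes of the same interneurons were lower as well, with Nos1, neuronal nitric oxide synthase, at −0.93 ± 0.13 (adjusted p = 0.00189) and Npy, neuropeptide Y, at −0.75 ± 0.12 (adjusted p = 0.00451). Pthlh, a peptide gene of another interneuron class, measured 1.32, 1.27, 1.58 and 1.35 CPM against 5.01, 9.26, 4.09 and 6.08 CPM (−2.15 ± 0.26, adjusted p = 0.000992), and the receptor tyrosine kinase gene Kit changed by −0.43 ± 0.10. The lower members were 5 without R6/1 good mouse 1 or mouse 2, and Kit was not called without mouse 2. The promoter of Sst is shown because it holds the classical cyclic AMP response element TGACGTCA, in capitals, at bases −48 to −41. On either strand this element occurs in 3.23% of the 13085 promoters matched to tested genes, in 3.08% of those of higher genes and in 3.12% of those of lower genes. The sequence is from RefSeq (GRCm38.p6, chr16:23890795-23891094, minus strand).
Sst promoter: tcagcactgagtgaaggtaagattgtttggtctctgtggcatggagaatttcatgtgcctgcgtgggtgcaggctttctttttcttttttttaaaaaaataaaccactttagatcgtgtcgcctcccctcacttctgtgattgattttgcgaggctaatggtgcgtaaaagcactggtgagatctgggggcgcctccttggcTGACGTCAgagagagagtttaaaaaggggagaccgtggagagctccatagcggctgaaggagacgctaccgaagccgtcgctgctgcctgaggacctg

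Receptor and channel genes were lower more often than higher, and not evenly. Of 13 GABA-A receptor subunit genes only Gabrd, the delta subunit that forms receptors outside synapses, passed, at 54.4, 62.8, 62.3 and 81.1 CPM in R6/1 and 180, 193, 133 and 157 CPM in wild type (−1.35 ± 0.14, adjusted p = 0.000796). Of 16 ionotropic glutamate receptor genes, 4 were lower and 0 higher. These were Grik2, a kainate receptor gene (−0.94 ± 0.12), the NMDA receptor genes Grin2c (−0.92 ± 0.10) and Grin2a (−0.48 ± 0.11), and the AMPA receptor gene Gria3 (−0.36 ± 0.09). Of 10 metabotropic glutamate receptor and partner genes, 5 were lower, including Grm4 (−1.02 ± 0.15), Grm3 (−0.78 ± 0.17) and Grm5 (−0.50 ± 0.11). Homer1, their scaffold gene, measured 87.4, 92.6, 72.9 and 107 CPM against 257, 440, 198 and 237 CPM (−1.65 ± 0.25, adjusted p = 0.0044) and is counted in the MSN core, metabotropic and immediate early lists. Among 22 serotonin, muscarinic and adenosine receptor genes, 6 were lower and 1 higher. The one higher was Htr2c at 156, 141, 126 and 152 CPM against 55.3, 77.4, 102 and 96 CPM (0.80 ± 0.17, adjusted p = 0.0141), and Adora1 (−0.51 ± 0.08) and Htr6 (−0.64 ± 0.17) were among those lower, with 3 lower without R6/1 good mouse 2 or mouse 3. Calls that leaving out a single mouse ended were those of Gria3 (6 of 8 fits), Grm3 (4) and Htr6 (6).

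Of 48 potassium channel genes, 19 were lower and 0 higher (median −0.33). Kcnj4, an inward rectifier gene of MSNs, measured 96.3, 105, 78.5 and 102 CPM in R6/1 and 209, 186, 170 and 212 CPM in wild type (−1.02 ± 0.11, adjusted p = 0.000503). The number was 12 without R6/1 good mouse 1 and 11 without mouse 2. Kcnh4 changed by −1.90 ± 0.27, Kcnh3 by −0.99 ± 0.14 and the leak channel genes Kcnk2 and Kcnk1 by −0.96 ± 0.16 and −0.67 ± 0.08. Of 32 calcium channel, release channel and pump genes, 13 were lower and 1 higher (median −0.34), with the inositol trisphosphate receptor gene Itpr1 at −1.05 ± 0.15 and the pump genes Atp2b2 and Atp2a2 at −0.79 ± 0.11 and −0.60 ± 0.10. The 14 sodium and HCN channel genes split evenly, with Scn4b and Scn2b (−0.60 ± 0.10) lower and Scn9a (0.96 ± 0.10) and the leak channel gene Nalcn (0.45 ± 0.08) higher. Scn9a measured 43.5, 43.6, 44.8 and 46.2 CPM in R6/1 and 23.3, 19.9, 27.2 and 21.2 CPM in wild type, and its groups were clearly apart. Kcnh3 overlaps another measured gene on the opposite strand, so that reads may not be separate.

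Scaffold genes of the postsynaptic density were lower in 13 of 21 cases, with 0 higher and a median of −0.56, against 5 lower and 0 higher of 35 genes of vesicles and transmitter release (median −0.20). Ppp1r9b, which encodes the spine scaffold spinophilin, measured 488, 514, 427 and 456 CPM in R6/1 and 1182, 1199, 1038 and 1130 CPM in wild type. Its groups were tight and far apart, and its log2 fold change of −1.27 ± 0.08 had the smallest adjusted p of the postsynaptic list, 9.02e-05. Shank3 (−1.22 ± 0.15) and Dlgap3 (−1.28 ± 0.15), scaffold genes known from corticostriatal synapses, were lower, as were Dlg4, which encodes PSD-95 (−0.74 ± 0.11), and Camk2b (−0.67 ± 0.10). On the presynaptic side Unc13a, a vesicle priming gene (−0.78 ± 0.10), Cplx2, a complexin gene (−0.66 ± 0.13), Sv2c (−0.40 ± 0.11) and Bsn (−0.45 ± 0.13) were lower. This release list held 2, 2, 2 and 3 lower genes without R6/1 good mouse 2 or 3 or wild-type good mouse 1 or 4. Of 28 kinesin and dynein genes, 2 were lower and 1 higher, beside 8.14% and 5.79% over all genes. Kif5c, a motor of axonal transport, measured 764, 774, 739 and 745 CPM against 1148, 1025, 1119 and 1011 CPM (−0.51 ± 0.07). Kif17 changed by −0.65 ± 0.12 and Kif16b by 0.39 ± 0.09, and 4 of the 28 were lower without wild-type good mouse 4. Unc13a overlaps another measured gene on the opposite strand, so that reads may not be separate, and Kif17 overlaps one on its own strand. Leaving out a single mouse ended the calls of Sv2c (7 of 8 fits), Bsn (6) and Kif16b (1).

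Activity-regulated genes were lower in part, and their levels varied widely between wild-type mice. Of 32 immediate early genes, which neurons transcribe within minutes of firing, 13 were lower and 0 higher, beside 8.14% lower over all genes, with a median of −0.96. In 20 of the 32, every R6/1 value lay below every wild-type value, beside 21.7% of all genes without overlap in either direction. The summed level was 472.5 to 581 CPM in R6/1 and 875 to 2457 CPM in wild type, the highest being wild-type mouse 2. Egr3, an MSN-enriched member, measured 44.5, 58.7, 43.5 and 69 CPM in R6/1 and 132, 242, 115 and 127 CPM in wild type (−1.51 ± 0.27, adjusted p = 0.00942). Egr4 measured 4.07, 3.97, 4.79 and 5.34 CPM against 11.4, 26.7, 7.37 and 7.53 CPM (−1.55 ± 0.42, adjusted p = 0.0426). For both Egr genes, R6/1 mice were alike and wild-type mouse 2 was well above the other wild-type mice. Nptx2, which encodes a secreted pentraxin that gathers AMPA receptors, measured 17.5, 15.4, 13.6 and 12 CPM against 25.8, 51.9, 35.1 and 53.1 CPM (−1.50 ± 0.23, adjusted p = 0.00413). Ier5 (−0.96 ± 0.14) and Jun (−0.60 ± 0.12) were lower as well. The lower members were 7, 7, 8 and 8 without R6/1 good mouse 1, 2, 3 and 4. Fits without 1 mouse no longer called Egr4 (5 of 8 fits).

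Several textbook members did not pass, although their values were mostly below wild type. Arc measured 21.5, 29.2, 31.4 and 37.1 CPM in R6/1 and 102, 288, 47.3 and 39.3 CPM in wild type (adjusted p = 0.0894). Nr4a1 measured 19.3, 18.3, 21.4 and 22.7 CPM against 72.3, 210, 28.6 and 37.7 CPM (−2.10 ± 0.64, adjusted p = 0.0725). Egr1 stood at −1.74 ± 0.48 (adjusted p = 0.0522), Npas4 at −1.71 ± 0.58 (adjusted p = 0.0941) and Fos, whose groups overlapped, at −1.23 ± 0.55 (adjusted p = 0.177). In all 5, wild-type mouse 2 held the highest value. Without wild-type good mouse 2, 15 of the 32 members were lower and the median was −0.72. With the range of running numbers as a covariate 4 were lower and the median was −0.65, and with libraries 1 to 8 alone 13 were lower. These well-known genes, like others named outside the lists’ leading members, were picked after their values were seen. The plot of activity-regulated genes shows the 8 mice for the leading members.

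**Figure D3:**
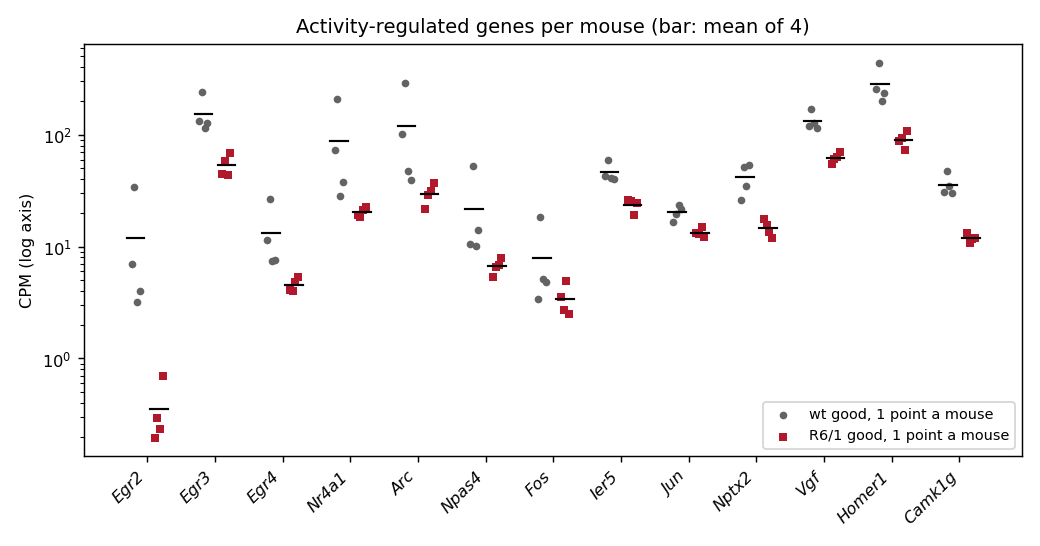
Each column of points is 1 activity-regulated gene, with the CPM of each of the 4 wild-type good mice (grey circles) and 4 R6/1 good mice (red squares) on a log axis and a bar at the mean of each group. A reader should see 1 wild-type point above the others for Egr3, whose wild-type mice ran from 115 to 242 CPM beside 43.5 to 69 CPM in R6/1.

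Neurotrophin and neurotrophin receptor genes were lower in part. Of 12 measured, 6 were lower and 0 higher, with a median of −0.75. Vgf, a neuropeptide precursor gene induced by neurotrophins, measured 55.2, 61, 62.7 and 70.3 CPM in R6/1 and 120, 169, 127 and 114 CPM in wild type (−1.09 ± 0.13, adjusted p = 0.000893). Ntrk2, the receptor gene of BDNF, measured 507, 468, 507 and 505 CPM against 668, 694, 764 and 750 CPM (−0.53 ± 0.07, adjusted p = 0.00173). Both were clearly separated, Ntrk2 with a small spread. Gdnf (−0.96 ± 0.22) and the sorting receptor gene Sort1 (−0.39 ± 0.09) were lower. Of the 12, 3 were lower without R6/1 good mouse 2. No longer called when single mice were left out were Gdnf (1 of 8 fits) and Sort1 (1).

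Of 31 genes of cholesterol synthesis and its control, a pathway that the brain runs apart from the rest of the body, 14 were lower and 0 higher, with a median of −0.32. The summed level ran from 2469 to 2573 CPM in R6/1 and from 3176 to 3464 CPM in wild type. Srebf2, the master regulator of the pathway, measured 180, 161, 146 and 169 CPM in R6/1 and 244, 231, 212 and 236 CPM in wild type (−0.49 ± 0.08, adjusted p = 0.00391). Enzyme genes under its control included Hmgcs1 (−0.55 ± 0.12) and Msmo1, a sterol demethylation gene, at 70.9, 65, 52.8 and 67.2 CPM against 117, 121, 95.5 and 96.4 CPM (−0.75 ± 0.11, adjusted p = 0.00262). Cyp46a1, the neuronal enzyme that turns cholesterol into its exported hydroxylated form, changed by −0.69 ± 0.12 and the regulator gene Insig1 by −0.66 ± 0.11. For Srebf2, Msmo1, Cyp46a1 and Insig1 no values overlapped. The lower members were 4, 7 and 7 without R6/1 good mouse 2, 3 and 4 and 9 without wild-type good mouse 3, and Hmgcs1 was not called without R6/1 good mouse 2. The promoter of Msmo1 is shown as that of a sterol enzyme gene, since NF-Y is known to act beside SREBP at such promoters. It holds CCAAT 3 times, in capitals, at bases −160 to −156, −96 to −92 and −55 to −51, a box found on either strand in 37.4% of all promoter windows. The sequence is from RefSeq (GRCm38.p6, chr8:64733529-64733828, minus strand).
Msmo1 promoter: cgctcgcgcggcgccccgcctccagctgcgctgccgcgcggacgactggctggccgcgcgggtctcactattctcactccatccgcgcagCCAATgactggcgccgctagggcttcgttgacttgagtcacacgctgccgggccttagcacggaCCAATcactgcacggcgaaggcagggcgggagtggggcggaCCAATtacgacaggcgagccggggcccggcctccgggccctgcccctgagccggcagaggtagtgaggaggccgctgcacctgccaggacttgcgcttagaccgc

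Among glial lists, astrocyte markers were lower most often, 12 of 20 with 0 higher and a median of −0.47, 6 of 20 without R6/1 good mouse 2, and their summed level was 6239 to 7239 CPM in R6/1 against 10086 to 11032 CPM in wild type. Glul, which encodes glutamine synthetase, measured 1061, 997, 1015 and 1071 CPM in R6/1 and 1752, 1778, 1929 and 1809 CPM in wild type (−0.81 ± 0.07, adjusted p = 0.000265). Slc1a2, the main glutamate transporter gene, measured 1741, 1591, 1625 and 2097 CPM against 3474, 3376, 2933 and 3267 CPM (−0.89 ± 0.10, adjusted p = 0.000865). Both genes take part in clearing glutamate from synapses, and neither overlapped between genotypes. Slc1a3 (−0.53 ± 0.08) and Aldoc (−0.76 ± 0.08) were lower, while Gfap overlapped at 61.1, 85.5, 147 and 69.8 CPM against 98, 74.6, 114 and 91.5 CPM (−0.06 ± 0.27, adjusted p = 0.911). Microglial markers were lower in 7 of 16 cases (median −0.33), with P2ry12 at −0.38 ± 0.08, Cx3cr1 at −0.39 ± 0.09 and Csf1r at −0.35 ± 0.09, and 2, 2, 4 and 3 were lower without R6/1 good mouse 1, 2 or 3 or wild-type good mouse 1. Of 18 oligodendrocyte and myelin genes 5 were lower, among them Mal (−0.92 ± 0.22), Ugt8a (−0.66 ± 0.13) and Cldn11 (−0.70 ± 0.18), with 1 lower without R6/1 good mouse 1 or 2 or wild-type good mouse 1, 2 or 3, and the sums overlapped at 7912 to 12402 CPM in R6/1 and 11044 to 17012 CPM in wild type. Cacng4 (−1.19 ± 0.22), an AMPA receptor auxiliary gene, and Vcan (−0.33 ± 0.09) were lower among 10 precursor markers, and Ly6c1 (−0.54 ± 0.08), Cldn5 (−0.66 ± 0.13), Emcn (−0.54 ± 0.11) and Pecam1 (−0.33 ± 0.07) among 12 endothelial markers. All 12 pericyte and smooth muscle markers stayed outside the threshold, the smallest adjusted p being that of Des (−0.45 ± 0.19, adjusted p = 0.139). P2ry12, Cx3cr1 and Csf1r each overlap another measured gene on the opposite strand, so that reads may not be separate. Calls that leaving out a single mouse ended were those of Cx3cr1 (3 of 8 fits), Csf1r (4), Mal (5), Cldn11 (5) and Vcan (6).

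Protein folding genes of the endoplasmic reticulum were lower in part. Of 26 genes of the endoplasmic reticulum and its stress response, 8 were lower and 1 higher (median −0.31). Hsp90b1, an ER chaperone gene, measured 232, 236, 250 and 232 CPM in R6/1 and 313, 493, 398 and 318 CPM in wild type (−0.68 ± 0.13, adjusted p = 0.00965). The calcium-binding chaperone gene Calr changed by −0.62 ± 0.13, the stress sensor gene Atf6 by −0.59 ± 0.12 and Trib3 by −1.17 ± 0.25, while Asns, the asparagine synthetase gene, was higher (0.35 ± 0.08). Wild-type mouse 2 was the highest for Hsp90b1, and without it the median of the list was −0.13, with 8 members lower. The number lower was 4, 4, 5 and 5 without R6/1 good mouse 1, 2, 3 and 4. Of 27 cytosolic heat shock genes, 3 were lower and 0 higher, a share near the 8.14% of lower genes over the table. These were the small heat shock genes Hspb1 (−1.38 ± 0.26), Hspb8 (−1.02 ± 0.18) and Cryab (−0.49 ± 0.13). The median of the 27 was −0.14 with all 8 mice. It was 0.03 in libraries 1 to 8 alone, with 2 higher. With the range of running numbers as a covariate it was 0.04, with 1 higher. Of 36 proteasome genes, 4 were higher, 0 lower and 32 not called (median 0.10), beside 5.79% of higher genes over the table. These were Psme1, Psme2, Psma5 and Psmd1, and 2 were higher without R6/1 good mouse 1 or 2 or wild-type good mouse 1. Psme1, which encodes a subunit of the interferon-inducible activator, measured 42.4, 40.5, 39.7 and 34.9 CPM against 21, 22.5, 29.5 and 26.7 CPM (0.66 ± 0.11, adjusted p = 0.00503). Of 30 autophagy genes 3 were higher and 1 lower, beside 5.79% and 8.14% over the table. Ulk1 (0.33 ± 0.08), Sqstm1 (0.28 ± 0.08) and Atg4b (0.22 ± 0.06) were higher, and the lysosomal protease gene Ctsd was lower (−0.28 ± 0.07). Psme1 and Atg4b each overlap another measured gene on the opposite strand, so that reads may not be separate. Leaving out a single mouse ended the calls of Cryab (6 of 8 fits), Psme2 (3), Psma5 (3), Ulk1 (5), Sqstm1 (7), Atg4b (7) and Ctsd (4).

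Few genes of energy metabolism were called. Of 38 glycolysis and TCA cycle genes, 2 were higher and 2 lower, with Aldoc (−0.76 ± 0.08), an astrocyte-enriched aldolase gene, among those lower and Pdk1 (0.50 ± 0.11) and Gpi1 (0.31 ± 0.08) higher. Of 48 nuclear genes of oxidative phosphorylation, 5 were lower and 0 higher, all with log2 fold changes between −0.41 and −0.24: Cox7c (−0.37 ± 0.08), Ndufa1 (−0.41 ± 0.09), Atp5d (−0.28 ± 0.06), Ndufb10 (−0.26 ± 0.07) and Cox8a (−0.24 ± 0.07). Without any 1 of the R6/1 good mice, or of wild-type good mice 1 and 2, 3 of them were lower. The 13 mitochondrial mRNAs are listed at 0 in every library and were not compared. In the PGC-1 list only Esrra, 1 of 15, was lower (−0.37 ± 0.11). Of 27 glutathione and antioxidant genes 4 were lower and 1 higher, with Prdx6 (−0.39 ± 0.09) lower and Txn1 (0.29 ± 0.08) higher. Gstm1 (−0.46 ± 0.09) and Gstm5 (−0.37 ± 0.07) were lower too, and reads of such near-identical paralogs may have been split between them. Of 44 ribosomal protein genes 4 were lower, Rplp2 (−0.35 ± 0.09) by the most of them, and 0 were higher, with 0 to 2 lower without 1 of the R6/1 good mice or of wild-type good mice 2 and 3. Shares of this size lie near the 8.14% of lower genes over the whole table. Atp5d, Esrra and Gstm5 each overlap another measured gene on the opposite strand, so that reads may not be separate. Fits without 1 mouse no longer called Gpi1 (6 of 8 fits), Ndufb10 (7), Cox8a (7), Esrra (6), Txn1 (6) and Rplp2 (5).

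The list with the most increases was that of the clustered protocadherins, cell surface proteins that give each neuron a recognition code. Of its 28 genes 14 were higher and 0 lower, with a median of 0.47 in the plot of gene lists, beside 5.79% of higher genes over the table. Pcdhb9 measured 23.7, 22.7, 20.2 and 24.8 CPM in R6/1 and 10.3, 12, 13.3 and 13.1 CPM in wild type (0.91 ± 0.11, adjusted p = 0.000906). Pcdhb21 measured 6.91, 5.4, 6.89 and 6.54 CPM against 3.81, 2.77, 3.09 and 3.01 CPM (1.02 ± 0.16, adjusted p = 0.00335). Every R6/1 value of both was above every wild-type value. Pcdhb22 (0.77 ± 0.13), Pcdhb16 (0.74 ± 0.13) and Pcdhb15 (0.79 ± 0.15) were higher as well. These genes are near-copies of one another in a row, and overlapping gene models lie among them, so how reads were divided within the family is uncertain. Of the 28, 9 and 8 were higher without R6/1 good mouse 2 and mouse 4. Among 24 other cadherins and protocadherins, 4 were higher and 3 lower, with Cdh18 (1.21 ± 0.19), Pcdh19 (1.09 ± 0.26) and Pcdh20 (0.81 ± 0.18) higher and Cdh4 (−0.94 ± 0.18) and Cdh13 (−0.54 ± 0.08) lower. Of 42 axon guidance genes 5 were lower and 0 higher, beside 8.14% lower and 5.79% higher over all genes. The lower ones included Sema7a (−1.06 ± 0.16), Plxnd1 (−0.93 ± 0.16), Nrp1 (−0.52 ± 0.12), Robo3 (−1.56 ± 0.42) and Plxna2 (−0.33 ± 0.10). They were 2 without R6/1 good mouse 2 and 3 without R6/1 good mouse 3 or 4 or wild-type good mouse 2, and the higher cadherins were 2 without R6/1 good mouse 1, 2 or 3 or wild-type good mouse 1. Cdh18 overlaps another measured gene on the opposite strand, so that reads may not be separate. No longer called when single mice were left out were Pcdh19 (4 of 8 fits), Nrp1 (1), Robo3 (6) and Plxna2 (6).

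**Figure D4:**
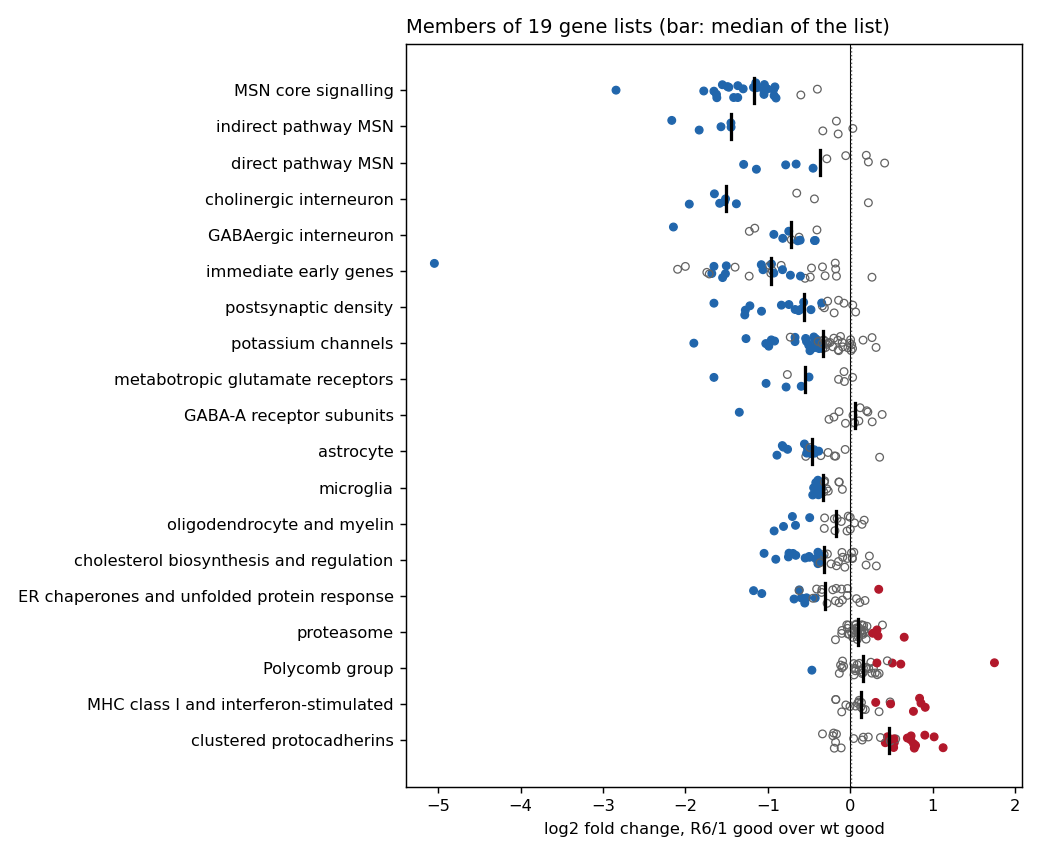
Each row is 1 gene list, with the log2 fold change (R6/1 good over wild-type good) of its tested members as points, filled where called (blue lower, red higher) and open where not, and a bar at the list’s median. A reader should see most coloured points left of 0, as in MSN core signalling (23 of 25 lower, median −1.17), and a row shifted to the right for clustered protocadherins (14 of 28 higher, median 0.47).

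Most chromatin genes were not called. Of 31 Polycomb group genes 4 were higher, 1 lower and 26 not called, beside 5.79% higher and 8.14% lower over all genes. Sfmbt2, given above among the largest increases, Cbx8 (0.61 ± 0.12) and Pcgf6 (0.33 ± 0.09) were higher and Cbx6 (−0.46 ± 0.08) was lower. The higher Polycomb genes were 3 to 6 when 1 mouse was left out. They were 8 in libraries 1 to 8 alone, and 8 with all 8 wild-type libraries as controls. Of 21 histone deacetylase and acetyltransferase genes 3 were higher, 1 lower and 17 not called, with 5 higher without wild-type good mouse 4 and 3 lower without wild-type good mouse 3. Hdac1 measured 40.7, 38.9, 37.5 and 39 CPM in R6/1 and 24.6, 22.2, 28.7 and 28.3 CPM in wild type (0.59 ± 0.09, adjusted p = 0.00315), the acetyltransferase genes Ep300 (0.40 ± 0.09) and Crebbp (0.31 ± 0.07) were higher, and Hdac5 was lower (−0.39 ± 0.08). CREB-binding protein and p300 are coactivators that mutant huntingtin is known to bind. In the list of NF-Y, CREB and huntingtin-related regulators 3 of 23 were higher and 3 lower. Nfya, the DNA-binding subunit gene of NF-Y, measured 55.2, 53.7, 53.6 and 57.8 CPM against 28.4, 37, 27.5 and 36.4 CPM (0.77 ± 0.11, adjusted p = 0.00178), and Nfyc changed by 0.46 ± 0.08. Both groups of Nfya were compact and did not meet. Trp53 was higher (0.35 ± 0.09) and Hip1 (−0.35 ± 0.07) and Crem (−0.61 ± 0.14) were lower. Of 8 measured homeobox developmental regulators, out of 42 listed, 0 passed, and Nkx2-1, with the smallest p, stood at −0.63 ± 0.40 (adjusted p = 0.333). Crem overlaps another measured gene on the opposite strand, so that reads may not be separate. Calls that leaving out a single mouse ended were those of Pcgf6 (7 of 8 fits), Crebbp (4) and Trp53 (5).

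Interferon-stimulated and MHC class I genes were higher in 6 of 21 cases with 0 lower (median 0.14, and 0.21 without R6/1 good mouse 1 or wild-type good mouse 1). Ifit3, an antiviral effector gene, measured 14.5, 16.8, 15.8 and 14.1 CPM in R6/1 and 7.15, 10.2, 8.74 and 7.96 CPM in wild type (0.84 ± 0.13, adjusted p = 0.00265). Every R6/1 mouse lay above all wild-type mice for this gene. Oasl2 (0.77 ± 0.15), Ifit1 (0.86 ± 0.20) and Irf7 (0.91 ± 0.20, a gene that overlaps Phrf1 on the opposite strand) were higher. In a fit of all 4 groups, or with all 8 wild-type libraries as controls, 2 of the 21 were higher. Among 25 apoptosis and p53 target genes 2 were higher and 3 lower, beside 5.79% and 8.14% over all genes. Apaf1 (0.62 ± 0.11) and Bid (0.87 ± 0.18) were higher, and Cdkn1a (−1.41 ± 0.21), Ddit4 (−0.57 ± 0.14) and Bbc3 (−0.76 ± 0.20) were lower. Of these, 1 was lower without R6/1 good mouse 1 or 2 or wild-type good mouse 1. Cdkn1a, the cell cycle inhibitor gene, measured 5.34, 4.76, 4.85 and 5.2 CPM against 8.24, 12.3, 14.7 and 18.2 CPM (adjusted p = 0.00267). Bid overlaps another measured gene on the opposite strand, so that reads may not be separate. Leaving out a single mouse ended the calls of Ifit1 (3 of 8 fits), Ddit4 (5) and Bbc3 (6).

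Circadian and hormone-responsive genes were lower in part. Of 19 circadian genes 6 were lower and 0 higher (median −0.25). Npas2, the forebrain partner of BMAL1, measured 31.9, 32.8, 28.1 and 35 CPM in R6/1 and 74.1, 95.3, 63.7 and 81.3 CPM in wild type (−1.30 ± 0.12, adjusted p = 0.000331), and its groups were far apart. The output genes Dbp (−0.55 ± 0.10) and Hlf (−0.61 ± 0.11), Rorb (−0.48 ± 0.13) and Per1 (−0.82 ± 0.21) were lower, with 3 lower in all without R6/1 good mouse 1, 2 or 4. Of 20 glucocorticoid-responsive genes 6 were lower and 1 higher (median −0.30), with the metallothionein gene Mt1 at 89.3, 90.4, 84.4 and 98.2 CPM against 161, 151, 168 and 137 CPM (−0.77 ± 0.08, adjusted p = 0.000576), Sult1a1 at −1.06 ± 0.16 and Nr3c2, the mineralocorticoid receptor gene, higher (0.47 ± 0.10). The lower ones were 3 without R6/1 good mouse 2 or 3 or wild-type good mouse 1, and the median was −0.19 without wild-type good mouse 2 and −0.17 in libraries 1 to 8 alone. Of 17 retinoic acid genes 6 were lower and 0 higher (median −0.46). Dhrs3, which encodes an enzyme that turns retinaldehyde back into retinol, measured 7.69, 9.12, 7.65 and 7.59 CPM against 23.3, 19.4, 18.3 and 19.9 CPM (−1.33 ± 0.11, adjusted p = 0.000212), and the carrier genes Rbp4 (−0.98 ± 0.16) and Crabp2 (−1.67 ± 0.40) and the receptor gene Rxrb (−0.30 ± 0.08) were lower. The lower retinoic acid genes were 3 without R6/1 good mouse 1 or wild-type good mouse 2 and 2 without R6/1 good mouse 2 or wild-type good mouse 1. Of 17 brain long noncoding RNAs 3 were lower and 1 higher, with Malat1 at 660, 836, 632 and 775 CPM against 1714, 1207, 1130 and 1279 CPM (−0.88 ± 0.14, adjusted p = 0.00379) and Dlx6os1 (−0.82 ± 0.14) and Pantr1 (−0.50 ± 0.10) lower. Dlx6os1 overlaps Dlx6 on the opposite strand. Dbp and Sult1a1 each overlap another measured gene on the opposite strand, so that reads may not be separate. Fits without 1 mouse no longer called Rorb (5 of 8 fits), Per1 (5), Crabp2 (4) and Rxrb (7).

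Markers of neighbouring regions and of blood differed between mice and in part between genotypes. Of 16 cortical neuron markers 2 were lower, with summed levels of 551 to 1328 CPM in R6/1 and 503 to 1663 CPM in wild type, and the one with the smallest p, Rspo1, measured 0.784, 1.86, 1.28 and 1.25 CPM against 6.26, 5.16, 3.87 and 4.73 CPM (−1.95 ± 0.26). No marker passed among 8 of the lateral septum, 8 of the thalamus, 11 of ependyma, 7 measured of the choroid plexus and 18 of neuroblasts and dividing cells. Of 8 hippocampal markers 2 were lower and 1 higher, Fibcd1 (−1.13 ± 0.11), Trpc6 (−1.16 ± 0.21) and Dsp (2.29 ± 0.46), and of 12 measured hypothalamic markers Trh was lower (−1.21 ± 0.25). Hypothalamic sums ran from 95.7 to 175.5 CPM in R6/1 and from 56.1 to 162 CPM in wild type. Of 5 blood markers 2 were lower, and their sums of 83.2 to 209.5 CPM in R6/1 and 221 to 445 CPM in wild type did not overlap. None of the 5 was called without R6/1 good mouse 1, 2 or 3 or wild-type good mouse 1 or 2, and 4 were lower without R6/1 good mouse 4. Hbb-bs measured 27.5, 21.4, 15.4 and 37.6 CPM against 79, 78.9, 42.2 and 43.6 CPM (−1.26 ± 0.33, adjusted p = 0.0409), and globin genes are near-copies whose reads may be shared. The blood and astrocyte sums differed in the same direction as the neuronal lists, and their part in those results was not tested. Rspo1 and Trpc6 each overlap another measured gene on the opposite strand, so that reads may not be separate. No longer called when single mice were left out was Hbb-bs (5 of 8 fits).

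The same comparison in the mice of poor performance, R6/1 poor against wild-type poor, shares no animal with the one above and was set beside it. There, 1642 genes (8.48%) were higher and 2093 (10.8%) lower. Of the 1121 genes higher in the good mice 613 were higher in the poor mice too, 54.7% of the former and 37.3% of the latter, and of the 1577 lower genes 1053 were lower again, 66.8% and 50.3%. None was called in opposite directions, and 1096 of the 1121 and 1527 of the 1577 had the same sign. Across genes the log2 fold changes of the 2 comparisons had a Pearson r of 0.68, a description over genes that are not independent. The test of the difference between both genotype effects called 0 genes (0%) with edgeR, 1 with DESeq2, and 1118 genes at an unadjusted p under 0.05, the smallest adjusted p being 0.708. That no gene passed does not show that the effects were alike.

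**Figure D5:**
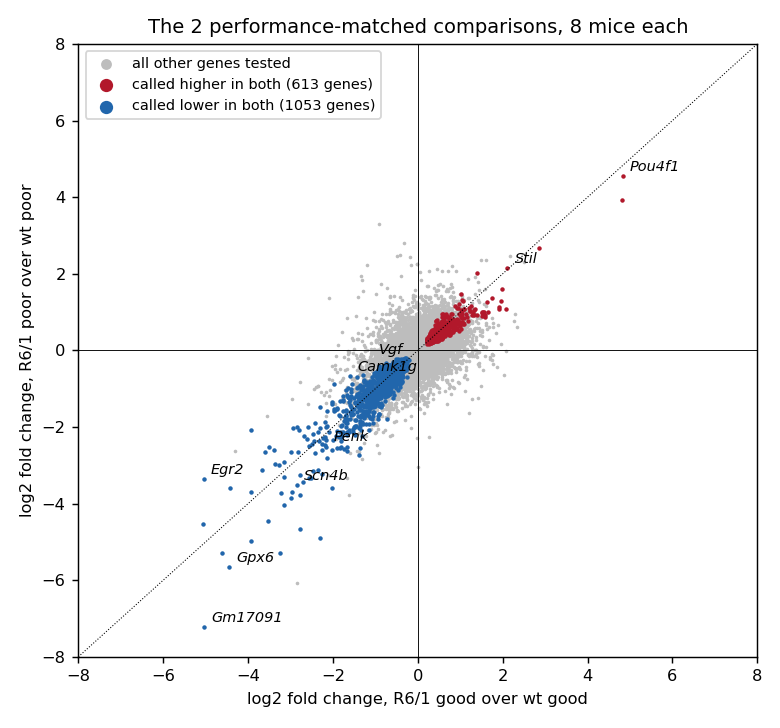
Each point is 1 of the 19363 genes, with the log2 fold change of R6/1 good over wild-type good on the horizontal axis and that of R6/1 poor over wild-type poor on the vertical axis (4 mice in each group), and colours mark the 613 genes called higher and the 1053 called lower in both comparisons. A reader should see points along the diagonal (r = 0.68) and 0 genes called in opposite directions.

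Counts and medians of the lists in the 2 comparisons are given here side by side and without a test of the lists. Over all genes, 8.48% were higher and 10.8% lower in the poor comparison, beside 5.79% and 8.14% in the good one. Some list counts lie near these shares, and a difference in counts is no result about performance. The running numbers are 11, 6, 15 and 16 for R6/1 poor mice 1 to 4 and 5, 14, 9 and 10 for wild-type poor mice 1 to 4. The 2 comparisons thus differ in running numbers as well as in performance, and the part of each was not tested. MSN core genes were lower in 25 of 25 cases in the poor comparison with a median of −1.62, beside 23 of 25 and −1.17 in the good one. Penk changed by −2.51 ± 0.12 in poor mice and by −2.17 ± 0.16 in good mice, and the difference of the 2 effects was −0.35 (unadjusted p = 0.114). Immediate early genes were lower in 5 of 32 cases with a median of −0.55 in poor mice, beside 13 of 32 and −0.96 in good mice. Genes higher in the interferon list numbered 0 of 21 in poor mice and 6 in good mice, with Ifit3 at 0.33 ± 0.43 and 0.84 ± 0.13. For proteasome genes the counts were 11 and 4 of 36 higher, for clustered protocadherins 6 and 14 of 28, and for glucocorticoid-responsive genes 1 and 6 of 20 lower. Cholesterol genes were lower in 14 of 31 cases in each. Vgf changed by −0.23 ± 0.19 in poor mice (adjusted p = 0.437) and by −1.09 ± 0.13 in good mice, with an interaction of 0.86 (unadjusted p = 0.00253).

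Single genes with the smallest unadjusted p for the interaction are given as values, since none passed the adjustment. On the side where the poor effect was the more positive stood Notch4 (good −0.63 ± 0.13, poor 0.24 ± 0.14, unadjusted p = 0.000231), Hebp2 (−0.37 ± 0.20 and 0.81 ± 0.18), Pglyrp1 (−0.99 ± 0.19 and 0.60 ± 0.27), Spred3 (−0.51 ± 0.08 and 0.17 ± 0.12) and Camk1g (−1.59 ± 0.15 and −0.67 ± 0.13). Camk1g, a calmodulin kinase gene, measured 13.2, 10.8, 11.8 and 11.9 CPM in R6/1 good and 30.5, 47.1, 35.1 and 30.4 CPM in wild-type good mice. On the other side stood Ano2, a calcium-activated chloride channel gene (good 0.26 ± 0.16, poor −0.90 ± 0.13, unadjusted p = 7.61e-05), Pcdhb6 (0.53 ± 0.13 and −0.17 ± 0.11), Susd1 (0.53 ± 0.11 and −0.11 ± 0.10), BB031773 (0.44 ± 0.21 and −0.94 ± 0.23) and Cep192, a centrosome gene (0.84 ± 0.11 and 0.24 ± 0.10). Trh was lower in good mice (−1.21 ± 0.25) and stood at 0.84 ± 0.77 in poor mice (unadjusted p = 0.0332 for the difference). The call that leaving out a single mouse ended was that of Pcdhb6 (1 of 8 fits).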

How the data were processed

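Striatal RNA of single mice was sequenced by the authors from stranded, poly(A)-selected libraries as 75-bp paired-end reads, which were mapped to GRCm38 with TopHat 1.0.1. CASAVA and Bowtie are also named in the submitters’ processing notes, while which program counted the reads, with what strand option and on which gene models is not given in the sources used here. The deposited table holds the authors’ raw read counts per Ensembl gene, 55450 genes in 16 libraries, with total counts of 16155356 to 24897354 per library. Groups were taken from the sample titles, and each column was matched to its sample by the sample number in both.

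A gene was tested when 4 or more of the 16 libraries held 10 or more of its reads. The 4 R6/1 good and 4 wild-type good libraries were fitted with edgeR 4.0.16 (R 4.3.3; TMM normalisation, robust quasi-likelihood test, two-sided), with Benjamini-Hochberg adjustment over all 19363 genes and a threshold of 0.05 on the adjusted p. The R6/1 poor and wild-type poor libraries were fitted in the same way, and the interaction of genotype and performance in 1 fit of all 16. Fold changes are on the log2 scale, and CPM were TMM-normalised over the 16 libraries. The value after ± is an approximate standard error. It is the absolute log2 fold change divided by the square root of the F statistic of the quasi-likelihood test. Exact intervals of count ratios are binomial. In simulated counts for the 19363 genes of the main comparison, 55.2% of 67 genes changed by 1.5-fold, 94% of 67 changed by 2-fold and 97% of 66 changed by 3-fold were recovered, with 11 false calls. Figures were drawn with matplotlib 3.10.9 in Python 3.11.15.

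The comparison, the gene lists and the tests were chosen with earlier results of these data known. Genes were named when they were among the 15 largest decreases or increases without overlap and with an average of at least 1 log2 CPM, among the 5 smallest p of a list, members of the direct, indirect or cholinergic lists, among the 10 called genes of highest CPM, switch-like (0.1 CPM or less in all mice of one group, 0.5 or more in all of the other), among the 5 smallest interaction p per direction, or next to the threshold. Some genes this rule names are not reported here. Others are said to have been picked after their values were seen. Alternatives were RLE size factors, DESeq2 1.42.0, other count filters (none, or 50 counts), no robust dispersions, the replicate number as a block, the range of running numbers as a covariate, libraries 1 to 8 or 9 to 16 alone, 1 fit of all groups, all 8 wild-type libraries as controls, and leaving out each mouse. Promoter sequences were read from RefSeq (GRCm38.p6). Symbols were matched to all 55450 gene identifiers, and Gpr52 of the indirect pathway list was not matched. The human transgene, the 13 mitochondrial mRNAs and the authors’ own comparisons were not analysed here. The study drew its mice from several cohorts and litters, and reports that certain mice of the same litter tended to rank alike. The labels do not give litter or cohort, so the mice of a group may not be independent. The p-values measure the spread between these libraries.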

Additional observations from a re-analysis of the deposited data

Results flagged for a closer look

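In 33 of 570 groups of 4 mice (2 groups for each of 285 genes named), 1 mouse lay so far from the other 3 that Dixon’s test set it apart at the 95% level, and about 1 in 20 groups would be set apart by chance. R6/1 good mouse 1 was set apart with the highest value, for Gm20628 (3.58) and, with the lowest value, for Slc5a7 (14.2) CPM. R6/1 good mouse 2 was set apart with the highest value, for Dhrs3 (9.12) and, with the lowest value, for Ntrk2 (468) CPM. R6/1 good mouse 3 was set apart with the highest value, for 4931428F04Rik (18.2), Hspb8 (11) and Tmc3 (5.49) and, with the lowest value, for Camk2a (1021), Gria3 (172) and Rgs11 (16.9) CPM. R6/1 good mouse 4 was set apart with the highest value, for AC128672.1 (0.599), Atp2a2 (680), Fibcd1 (9.04) and Pcgf6 (33.1) CPM. Wild-type good mouse 1 was set apart with the highest value, for Csf1r (242) and Gstm1 (279) and, with the lowest value, for Ano2 (17.5) and Smim24 (0.626) CPM. Wild-type good mouse 2 was set apart with the highest value, for Egr2 (33.9), Egr3 (242), Fos (18.5), Ier5 (59.8) and Npas4 (52.1) and, with the lowest value, for Bbc3 (2.58) CPM. Wild-type good mouse 3 was set apart with the highest value, for Oasl2 (6.64) and Pcdhb22 (15) and, with the lowest value, for Cbx6 (413), Cox8a (233) and Unc13a (296) CPM. Wild-type good mouse 4 was set apart with the highest value, for Npy (72.8) and, with the lowest value, for Cryab (119), Ctsd (216) and Ugt8a (95.7) CPM. The genes set apart by a high value in wild-type good mouse 2 are all immediate early genes, a list in which 15 of 32 members were lower, with a median of −0.72, without this mouse.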

How the results depend on the processing

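Every called gene named above kept its direction under all alternatives run. These fits reuse the same R6/1 good and wild-type good libraries, and most called genes did not overlap between the groups. A kept direction was therefore nearly fixed in advance and is not independent support. For R6/1 good against wild-type good, the main 2698 calls (1121 higher, 1577 lower) became 1578 (652 and 926) with the range of running numbers as a covariate, 4758 (2350 and 2408) with all 8 wild-type libraries as controls, and 1381 to 2582 (483 to 981 and 898 to 1613) when 1 mouse was left out. The higher genes were 1792 in 1 fit of all 4 groups. RLE size factors, DESeq2, the other count filters, the fit without robust dispersions and libraries 1 to 8 alone gave 2029 to 3444 calls. Replicate numbers did not pair the mice, the correlations of same-numbered deviations being −0.35, 0.09, 0.09 and −0.33, and with the replicate number as a block the calls were 1539 (529 and 1010) in good mice and 1728 (494 and 1234) in poor mice. For R6/1 poor against wild-type poor, libraries 9 to 16 alone gave 2104 calls (763 and 1341), and leaving out 1 mouse gave 2144 to 4741 (756 to 2124 and 1388 to 2617), with 2144 without R6/1 poor mouse 3, 2385 without wild-type poor mouse 1 and 2472 without wild-type poor mouse 3. The interaction called 1 gene, more negative in poor mice, with DESeq2 and 0 to 2 when 1 mouse was left out, the 2 being more positive in poor mice (0 to 2) without R6/1 poor mouse 2. With the range of running numbers as a covariate the median was −0.21 for cholesterol genes, −0.16 for circadian genes, −0.16 for glucocorticoid-responsive genes and −0.13 for endoplasmic reticulum genes. Lists with 0 higher genes held 1 when a mouse was left out in the case of direct pathway (R6/1 good mouse 3), GABA-A receptor, release, PGC-1, heat shock and cholesterol genes (wild-type good mouse 3, 1, 2, 2 and 4), and 2 for axon guidance (wild-type good mouse 3). The cause of these shifts was not tested. The fits that leave libraries out also hold fewer libraries, and the part of that was not tested either. Of 253 called genes named above, 188 were called in every fit without 1 mouse, and 62 of the other 65 were not called without R6/1 good mouse 2.

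Depth and read assignment limit some values. Ratios for Pou4f1 and Gm17091 rest on a few reads in one group. Changes of 1.5-fold were often missed in simulated counts, where genes of low count were not among those changed. The simulation changed only 67, 67 and 66 genes, far fewer than the 2698 called in the data. The adjustment is stricter when fewer genes change, so the recovered shares do not measure the sensitivity of the real comparison. The p-values for genes with near-identical copies depend on how reads were divided, which the sources used here do not give.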

Other observations

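The genes named here were picked after their values were seen. Wt1, which encodes a zinc finger transcription factor of kidney development, was counted 61, 43, 31 and 40 times in the R6/1 good mice and 0, 0, 5 and 1 times in the wild-type good mice, a ratio scaled to library size of 32.8 (exact 95% interval 14.8 to 90.6, counting error only). Its log2 fold change was 4.81 ± 0.60 (adjusted p = 0.00109) in good mice and 3.92 ± 0.54 in poor mice, and the groups did not overlap. Cdc45, a replication fork gene, measured 3.58, 4.22, 3.39 and 4.75 CPM in R6/1 and 1.41, 1.71, 1.86 and 1.83 CPM in wild type (1.22 ± 0.19, adjusted p = 0.00324). Clspn, a replication checkpoint gene, measured 2.89, 5.3, 3.8 and 5.69 CPM against 34.2, 35.1, 13.2 and 13.5 CPM (−2.44 ± 0.41, adjusted p = 0.0084). Wdr62, a spindle pole gene, was higher (1.13 ± 0.26, adjusted p = 0.0191), while Mki67, the proliferation marker, did not pass (−0.25 ± 0.23, adjusted p = 0.508), and of the 18 listed genes of neuroblasts and dividing cells 0 were called. No values overlapped for Cdc45 or Clspn. Wdr62 was not called without R6/1 good mouse 4.

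Of 2439 long noncoding RNA genes tested, 88 were higher and 99 lower in R6/1 good mice, beside 5.79% and 8.14% over all genes. Gm10754, a long intergenic RNA, measured 1.76, 2.7, 1.52 and 2.3 CPM in R6/1 and 9.08, 7.14, 3.87 and 4.03 CPM in wild type (−1.54 ± 0.31, adjusted p = 0.0104).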
